A study of Homo sapiens and Mus musculus with 27 samples.

Results

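In the human breast cancer line HCC1937, RNA levels were compared between cells given 10 µM AMD3100 and cells given 10 µM TM, each as a single drug, to find which genes tell the 2 drugs apart. The comparison rests on 5 of the 27 libraries of the series: AMD3100 replicates 2 and 3, and TM replicates 1, 2 and 3. They were chosen by label and not by the level of any gene. AMD3100 replicate 1 was left out for its low complexity, so the AMD3100 arm holds 2 libraries. The 3 libraries of HCC1937 given vehicle entered the same fit and show the level without drug. The series also holds another human breast cancer line, MDA-MB-231, given vehicle or 10 nM bortezomib together with 10 µM TM or 10 µM AMD3100, and libraries titled 4T1, a mouse mammary cancer line, which were not analysed here. No library of HCC1937 received bortezomib, and none received AMD3100 and TM together. The labels give TM as an abbreviation, and it is kept as such. The labels call the replicates biological but do not say whether they came from separate cultures, and the length of treatment is not given in the sources used here, so p-values measure the spread between these libraries, which may be technical.

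HCC1937 is known to carry an inactivating mutation of BRCA1. AMD3100 blocks CXCR4, a chemokine receptor that binds the ligand CXCL12 and signals through G proteins to cell migration and survival. Bortezomib, used in the other arms of the series, binds the catalytic subunit PSMB5 of the proteasome, the complex that degrades ubiquitin-tagged proteins. Drugs given to cultured tumour cells are commonly read through a few well-known gene programmes: the cell cycle genes that are transcribed when cells divide, the growth arrest genes that rise after DNA damage, the targets of the stress factor ATF4, which rise under amino acid shortage or protein stress, and the feedback genes that growth factor signalling through ERK switches on.

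The 5 libraries compared held 38189932 to 43973262 counts each, with 29583 to 31770 genes detected, 10.5% to 11.3% of counts from mitochondrial genes and 0.638% to 0.699% from ribosomal RNA. AMD3100 replicate 1 held 35981504 counts but only 20639 detected genes, with 19.9% mitochondrial counts and 3.06% ribosomal RNA. Of the basal breast markers, KRT17, FOXC1, EGFR and CAV1 passed the filter on low counts, while KRT5, KRT6B and TP63 had too few reads to be tested. Among luminal markers KRT18 stood at 625 and 656 CPM (a gene's count scaled to a fixed library total, with totals adjusted by the TMM method) with AMD3100, ESR1 was near 1 CPM, and PGR had too few reads. EPCAM also had too few reads. Some genes that every cell uses were read at very low levels in all arms (ALDOA at 3.30 and 3.88 CPM and PSMA6 at 3.06 and 2.16 CPM with AMD3100), so a low value in this table does not show that a gene is silent. How reads over overlapping genes were counted is not given in the sources used here. No T cell marker of 8 passed the filter on low counts.

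HCC1937 cells given the 2 drugs differed in RNA level at many genes tested. Of 20398 genes tested with edgeR's quasi-likelihood test and Benjamini-Hochberg adjustment, 7442 (36.5%) were called at an adjusted p under 0.05: 4014 (19.7%) were higher with AMD3100 and 3428 (16.8%) were higher with TM. Most differences were small. In such bulk libraries, fewer cells of a kind and less RNA per cell cannot be told apart. The median absolute log2 difference of the called genes was 0.47, and 60.9% of them differed by less than 1.5-fold. A change of at least 2-fold was reached by 597 called genes (2.93%) in the direction of AMD3100 and by 762 (3.74%) in the direction of TM. The median over all tested genes was -0.014 on the log2 scale. With library totals as the only scaling, 3095 genes were called higher with AMD3100 and 4675 lower, so that 39.8% of calls were higher in place of 53.9%. With AMD3100 replicate 1 put back, 1599 genes of 19461 were called (8.22%), 898 higher (4.61%) and 701 lower (3.6%). All 1599 were among the 7442, in the same direction. Counts with that library kept are therefore given beside most gene groups below. Counts in each gene list are to be read against the shares over all tested genes. These are 19.7% higher and 16.8% lower, or 4.61% and 3.6% with that library kept.

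Vehicle shows on which side the arms stood. The first principal component of log2 CPM held 40.8% of the variance, and the TM libraries lay at 57.3, 60.0 and 60.5 on it, the AMD3100 libraries at -34.4 and -31.6 and the vehicle libraries between -37.8 and -36.4. Against vehicle, TM gave 8318 called genes (40.8%) and AMD3100 gave 1661 (8.14%), from 3 and 2 libraries. These comparisons share the vehicle libraries with each other and the drug libraries with the comparison of the drugs, so their values are set beside it below and are not counted as separate support.

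**Figure D1:**
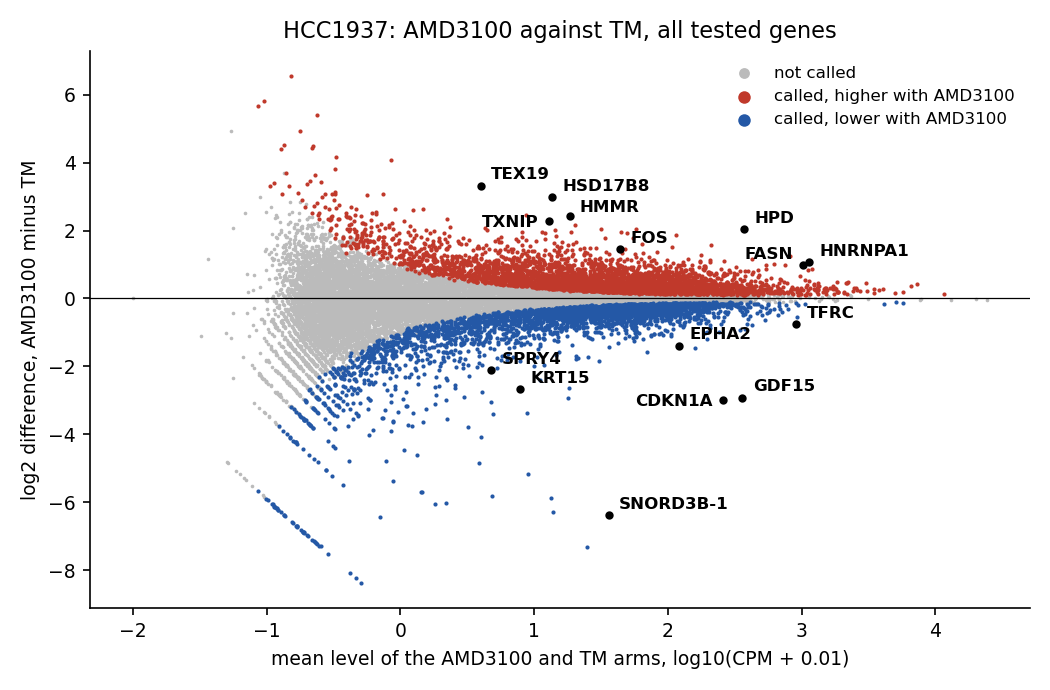
Each point is 1 of the 20398 tested genes, with its mean level in both arms on the x axis as log10(CPM + 0.01) and its log2 difference, AMD3100 minus TM, on the y axis. Red and blue points are the 4014 genes called higher and the 3428 called lower with AMD3100, and CDKN1A and GDF15 stand apart among well-read genes near -3. The diagonal streaks at the lower left are genes with few or no reads in the AMD3100 libraries.

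The 14 genes named here for the largest fold excess under AMD3100 were all called lower with TM than with vehicle, while against vehicle AMD3100 was called in 6 of them. HPD, the enzyme that turns 4-hydroxyphenylpyruvate into homogentisate in tyrosine breakdown (chr12 on GRCh38), was read at 582 and 608 CPM with AMD3100 and at 143, 147 and 145 CPM with TM, against 607, 583 and 616 CPM with vehicle. Every AMD3100 library was above every TM library by a wide margin, and the AMD3100 and vehicle ranges overlapped. AMD3100 replicate 1 lay between them, at 344 CPM. The log2 difference was 2.03 ± 0.0411 (SE; edgeR, adjusted p = 1.02e-23), or 4.10-fold. HSD17B8, a mitochondrial dehydrogenase, was read at 24.2 and 23.8 CPM against 2.88, 3.21 and 3.09 CPM with TM (log2 2.97). TEX19, a gene known from germ cells, had 6.91 and 7.49 CPM against 0.607, 0.924 and 0.635 CPM (log2 3.32). ENTPD2 (log2 2.46), an ectonucleotidase that cleaves extracellular ATP, DHRS11 (2.05), a short-chain dehydrogenase, RAB26 (2.04), a GTPase of vesicle traffic, and SLC12A3 (1.94), a sodium-chloride cotransporter, were also called higher. So were TRIM66 (2.08), TMEM187 (2.01), CHRND (1.97), a subunit of the muscle acetylcholine receptor, HES7 (1.94), a repressor of the Notch pathway, and ATG16L2 (1.94). In each of these genes both AMD3100 libraries lay above all 3 TM libraries.

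TXNIP, which binds thioredoxin and restrains glucose uptake, separated all 3 arms. It was read at 20.8 and 22.03 CPM with AMD3100, at 4.63, 3.67 and 4.84 CPM with TM and at 27.8, 29.6 and 30.4 CPM with vehicle. AMD3100 exceeded TM by 2.28 ± 0.11 on the log2 scale (edgeR, adjusted p = 3.15e-15) and lay 0.45 below vehicle (adjusted p = 0.0052). Among the genes with the largest differences in CPM, HNRNPA1, a splicing factor, was 2.09-fold higher with AMD3100: 1533 and 1543 CPM stood against 736, 747 and 721 CPM with TM. EEF1A1, the elongation factor that brings aminoacyl-tRNA to the ribosome, was read at 8275 and 8537 CPM against 6165, 6186 and 6455 CPM (log2 0.42). ENO1, a glycolytic enzyme, differed by 0.45. HNRNPA1, EEF1A1 and RPS2 have many near-identical pseudogenes, so their counts are uncertain. SLC7A5 (log2 0.36), MT-CO3 (0.12) and RPS2 (0.27) were the other genes with large CPM differences in this direction. With AMD3100 replicate 1 kept, the calls of HES7, SLC7A5, MT-CO3 and RPS2 ended, and RPS2 turned to -0.030.

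Among genes with a mean above 100 CPM under TM, CDKN1A and GDF15 had the largest fold excess there. Larger folds at lower levels were read for small nucleolar RNAs, given near the end. CDKN1A encodes the cyclin-dependent kinase inhibitor p21 (chr6:36676460-36687339, plus strand, GENCODE 29 on GRCh38). It was read at 55.6 and 59.9 CPM with AMD3100 and at 443, 480 and 452 CPM with TM, while vehicle had 45.8, 48.5 and 49.5 CPM. The arms were far apart, and AMD3100 lay 0.27 above vehicle on the log2 scale. The log2 difference was -2.99 ± 0.057 (edgeR, adjusted p = 3.28e-24), so TM was 7.94-fold higher. GDF15, a secreted stress cytokine (chr19:18374731-18389176, plus strand), had 83.1 and 85.8 CPM with AMD3100, 622, 660 and 632 CPM with TM and 37.7, 33.7 and 37.6 CPM with vehicle. Here TM was 7.55-fold above AMD3100, but AMD3100 was itself above vehicle, by 1.22 on the log2 scale (edgeR, adjusted p = 3.01e-15). AMD3100 replicate 1, at 25.2 CPM, lay below all 3 vehicle libraries, so the position of AMD3100 against vehicle rests on leaving that library out. The difference from TM does not: with it kept, CDKN1A differed by -3.20 and GDF15 by -3.32.

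**Figure D2:**
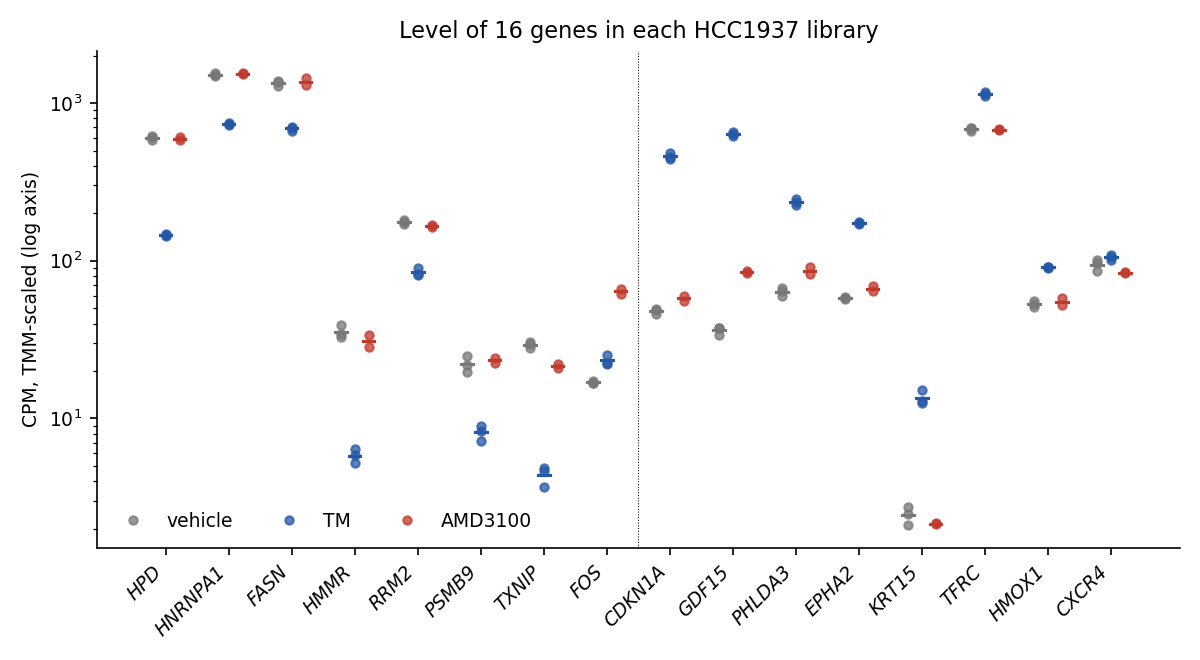
CPM of 16 genes in each of the 8 HCC1937 libraries of the fit, on a log axis, with short lines for group means and a dotted line between genes higher with AMD3100 (left) and higher with TM (right). For HPD, HNRNPA1, FASN, HMMR, RRM2 and PSMB9 the AMD3100 and vehicle points lie together and TM lies below, for CDKN1A, GDF15 and KRT15 TM lies above, and for FOS AMD3100 stands above both other groups.

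The other genes named here for a large excess under TM were mostly of low level. KRT15, a keratin of basal epithelial cells, was read at 2.14 and 2.16 CPM with AMD3100 and at 15.2, 12.99 and 12.5 CPM with TM (log2 -2.66 ± 0.173; edgeR, adjusted p = 1.32e-12). C1QTNF1 (log2 -2.65), GCNT3 (-2.39), a mucin-type glycosyltransferase, HRH1 (-2.75), the histamine H1 receptor, CRISPLD2 (-2.89) and LSMEM2 (-3.41) were also lower with AMD3100. DKK1 (-1.99), a secreted inhibitor of Wnt signalling, KIF27 (-1.89), and PURPL (-1.95), a long non-coding RNA, were lower by about 4-fold. RETREG1 (-2.06), a receptor for autophagy of the endoplasmic reticulum, lost its call when AMD3100 replicate 1 was kept. DHRSX (-3.36) is uncertain, because its symbol belongs to a gene shared by the X and Y chromosomes and TM replicate 3 had 33.5 CPM against 7.71 and 7.37 CPM in the other TM libraries. Among abundant transcripts TFRC, the transferrin receptor that takes up iron, was the clearest: 674 and 682 CPM with AMD3100 stood against 1139, 1110 and 1181 CPM with TM (log2 -0.75). ACTG1 (-0.15), MT-ND2 (-0.14) and MT-ND1 (-0.11) differed far less, and these 3 calls ended with AMD3100 replicate 1 kept.

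Genes of cell division were higher with AMD3100 than with TM. Of 33 G2 and M phase genes tested (34 listed), 24 were higher and 1 was lower, NEK2, a centrosomal kinase, at -0.17. That is 72.7% higher, against 19.7% over all tested genes. The median was 0.29, against -0.014 over all tested genes. HMMR, a microtubule-associated protein of the spindle, led by far: it had 33.7 and 28.2 CPM with AMD3100, 5.24, 6.37 and 5.83 CPM with TM and 34.1, 38.9 and 33.0 CPM with vehicle. Its log2 difference was 2.42 ± 0.105 (edgeR, adjusted p = 3.46e-16). The rest of the list moved less. MKI67, the proliferation marker Ki-67, was read at 127 and 134 CPM against 83.3, 81.9 and 81.8 CPM (log2 0.67), and TOP2A, the DNA topoisomerase of dividing cells, at 208 and 192 CPM against 127, 124 and 134 CPM (0.64). PLK1, a mitotic kinase, differed by 0.53, a call that ended with AMD3100 replicate 1 kept. TTK and FOXM1 were among the 8 members not called, at 0.02 and 0.12. With that library kept, 8 members were called higher and none lower, CDC20 and NEK2 being among those no longer called, while the median was 0.34. The median of the list against vehicle was -0.25 for TM and 0.027 for AMD3100.

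Many promoters of this list carry the letters TTTGAA, the cell cycle genes homology region or CHR, through which the DREAM and MuvB complexes are known to act on mitotic genes. The letters were searched on both strands in the 250 bases before the RefSeq start (GRCh38.p14). They were present for 13 of the 20 listed genes that were higher with AMD3100 and had a promoter in the table (65%), and for 1064 of 12069 promoters of tested genes (8.82%). In the list as a whole, called or not, 16 of 28 promoters held them (57.1%). CCAAT, the NF-Y box, was in 22 of those 28 (78.6%) and in 34.7% of promoters of tested genes. The list was chosen for its biology, which this motif marks, so the share describes the list and is not a result of the drugs. The 6 of these 13 genes with the largest differences are shown to let the letters be compared, each as 30 bases around the match nearest the start, 5′ to 3′ along the gene, with the match in capitals (TTCAAA is the same motif on the other strand).
HMMR (chr5:163460598-163460627, plus strand): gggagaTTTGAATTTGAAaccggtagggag
MKI67 (chr10:128126435-128126464, minus strand): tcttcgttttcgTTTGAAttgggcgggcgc
ASPM (chr1:197146765-197146794, minus strand): cggatgcaatcaTTCAAAtgaagcgccgcc
TOP2A (chr17:40418030-40418059, minus strand): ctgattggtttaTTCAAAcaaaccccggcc
PLK1 (chr16:23678848-23678877, plus strand): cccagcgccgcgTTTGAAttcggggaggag
CDC20 (chr1:43358904-43358933, plus strand): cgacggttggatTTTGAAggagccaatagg
HMMR, the gene with the largest difference, carries the motif as a tandem pair, of which the nearer begins 22 bases before the start. In the other genes shown, 1 copy lies in the window printed.

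DNA replication genes followed the same direction with smaller differences. Of 34 G1/S genes tested, 20 were higher with AMD3100 (58.8%, against 19.7% over all tested genes) and 1 was lower (MCM10, at -0.38), with a median of 0.21. RRM2, the small subunit of the enzyme that makes deoxyribonucleotides, was read at 163 and 168 CPM against 90.1, 82.1 and 80.9 CPM with TM, and vehicle had 170, 181 and 175 CPM. Its log2 difference was 0.97 ± 0.0525 (edgeR, adjusted p = 3.07e-14). MCM7 (0.80) and MCM5 (0.52), subunits of the replicative helicase, and CDC45 (0.70), which activates that helicase, were higher too, but these 3 calls ended with AMD3100 replicate 1 kept. PCNA, the sliding clamp, did not differ beyond the spread (-0.04). Of 12 replication-dependent histone genes 6 were higher and 1 was lower, with a median of 0.57; H2BC12 was read at 69.0 and 75.4 CPM with AMD3100, at 48.2, 50.8 and 49.0 CPM with TM and at 97.2, 93.3 and 96.1 CPM with vehicle. In H2BC12 both drugs lay below vehicle, TM further than AMD3100. Histone messages of this kind mostly lack poly(A) tails, and the libraries were made from poly(A) RNA, so their level is uncertain. Of 16 genes of homologous recombination 7 were higher and BRIP1 was lower. RBBP8 (0.53), PALB2 (0.57) and BRCA1 (0.46) were among them. BRCA1 had 46.1 and 42.3 CPM with AMD3100 and 32.7, 31.96 and 31.9 CPM with TM, and its call ended with AMD3100 replicate 1 kept, as did those of MCM10, BRIP1 (-0.30) and XRCC3 (0.36), the latter turning to -0.0034. With that library kept, 4 of the 34 G1/S genes (11.8%, against 4.61% over all genes tested in that setting), 4 histone genes and 2 recombination genes were called higher and none lower.

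**Figure D3:**
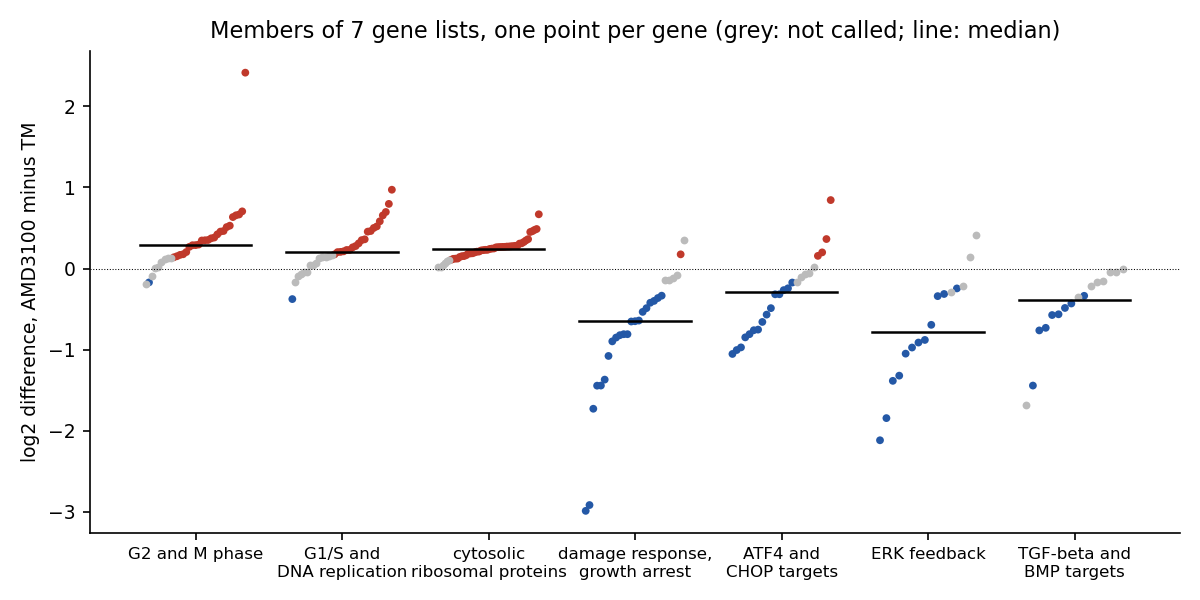
Log2 difference, AMD3100 minus TM, of each tested member of 7 gene lists, ordered within a list, in red or blue where called and grey where not, with a line at the median. The 48 ribosomal protein genes all lie above 0, while in the list of damage response and growth arrest genes CDKN1A and GDF15 lie near -3 and only PLK2 was called higher.

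Genes of the DNA damage response and growth arrest were higher with TM. Of 27 tested (28 listed), 21 were lower with AMD3100 (77.8%, against 16.8% over all tested genes) and 1 was higher, PLK2, a stress-responsive kinase, at 0.18. The median was -0.65. Besides CDKN1A and GDF15, PHLDA3, an inhibitor of AKT, was read at 82.0 and 90.6 CPM with AMD3100, at 225, 245 and 234 CPM with TM and at 67.4, 59.4 and 64.1 CPM with vehicle (log2 -1.44 ± 0.06; edgeR, adjusted p = 1.33e-16). GADD45A, a growth arrest gene, had 49.95 and 46.4 CPM against 100, 104 and 101 CPM (-1.08). MDM2 (-0.90), a ubiquitin ligase, and TP53INP1 (-1.73) were lower with AMD3100 as well. BTG2, CCNG1, TRIAP1, TP53I3 and XPC were not called. Keeping AMD3100 replicate 1 left 12 members called lower and none higher, with the same median of -0.65, and ended the calls of TP53INP1 and PLK2. Several of these genes are also driven by other stress pathways, and the list's median against vehicle was 0.71 for TM and 0.11 for AMD3100.

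Among the cyclin-dependent kinase inhibitors, CDKN1A differed most. CDKN2B, or p15, was lower with AMD3100 by 0.43, CDKN1B, or p27, by 0.22, and CDKN2A was higher by 0.33. CDKN3, a phosphatase that is itself transcribed in mitosis, was read at 41.9 and 43.5 CPM with AMD3100 and at 16.8, 15.3 and 13.4 CPM with TM, and was higher by 1.49 ± 0.0876 (edgeR, adjusted p = 1.59e-13). With AMD3100 replicate 1 kept, the calls of CDKN2B and CDKN1B ended and CDKN2A turned to -0.014. The cell death genes lay mostly on the same side. Of 15 BCL2 family genes tested 8 were lower with AMD3100 (53.3%, against 16.8% over all tested genes) and 2 were higher (13.3%, against 19.7%). The lower genes held both guardians and killers. BCL2L1 (-0.50), BCL2 (-0.35) and MCL1 (-0.34) protect cells, and BBC3 (-0.64), PMAIP1 (-0.65) and BAX (-0.36) promote death. BOK (0.84) and BAD (0.65) were higher. BBC3, or PUMA, was read at 27.7 and 32.3 CPM with AMD3100, 44.2, 50.9 and 45.4 CPM with TM and 18.6, 18.8 and 18.04 CPM with vehicle. In these libraries it was above vehicle with either drug, but AMD3100 replicate 1 had 4.29 CPM. Of 20 death receptor and caspase genes 8 were lower (40%) and CASP6 was higher. TNFRSF10B, the TRAIL receptor DR5, had 78.2 and 80.0 CPM against 122, 124 and 126 CPM (-0.65), and CASP9, the initiator caspase of the mitochondrial path, differed by -0.59. With AMD3100 replicate 1 kept, no BCL2 family gene was called, and 3 death receptor and caspase genes were called lower. TNFRSF10B, FAS (-0.81) and CASP6 (0.35) then lost their calls, and CASP9 and TNFRSF10A (-0.53) kept theirs.

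Stress genes downstream of ATF4 and CHOP were split. Of 24 tested (25 listed) 15 were lower with AMD3100 (62.5%, against 16.8% over all tested genes) and 4 were higher (16.7%, against 19.7%). The median was -0.29. ATF3, a stress-induced transcription factor, was read at 35.6 and 39.5 CPM with AMD3100, at 76.8, 76.7 and 72.6 CPM with TM and at 32.3, 35.5 and 35.1 CPM with vehicle (log2 -1.01 ± 0.069; edgeR, adjusted p = 3.67e-12). STC2 (-0.75), a secreted glycoprotein, SLC7A11 (-0.81), the cystine importer, PPP1R15A (-0.97), which reverses eIF2α phosphorylation, and CHAC1 (-0.57), which cleaves glutathione, were lower. The 4 in the other direction were DDIT4, SLC7A5, SLC3A2 and CEBPG. DDIT4, an inhibitor of mTORC1, was read at 367 and 369 CPM with AMD3100, at 200, 214 and 201 CPM with TM and at 249, 234 and 252 CPM with vehicle. Both AMD3100 libraries lay above vehicle and all TM libraries below it, while AMD3100 replicate 1 had 148 CPM. SLC7A5 and SLC3A2 encode the 2 chains of a large amino acid transporter. ATF4 itself (-0.06), TRIB3 (0.02) and ASNS (-0.17) were not called. Against vehicle the list's median was 0.62 for TM and 0.36 for AMD3100. Keeping AMD3100 replicate 1 left 7 members called lower and none higher, without calls for DDIT4, SLC7A5, SLC3A2, CEBPG, STC2, SLC7A11 and CHAC1. SLC3A2 (0.20) then stood at -0.089.

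The amino acid response element, searched as TGATGNAAN on both strands, was in 3 of the 13 promoters of listed genes that were lower with AMD3100 (23.1%) and in 1.43% of promoters of tested genes. In the list as a whole, called or not, 4 of 22 promoters held it (18.2%). The list was chosen for its biology, which this motif marks, so the share describes the list and is not a result of the drugs. The 3 promoters from genes lower with AMD3100 are shown as 30 bases each with the match in capitals. These letters are the core through which ATF4 and CHOP bind.
ATF3 (chr1:212565205-212565234, plus strand): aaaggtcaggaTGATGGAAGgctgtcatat
FGF21 (chr19:48755458-48755487, plus strand): gaaacaccaggATTGCATCAgggaggagga
CHAC1 (chr15:40953250-40953279, plus strand): cctcccctgccGTTGCATCActcctgccag
In FGF21, a hormone of the fasting response (log2 -0.76), and CHAC1 the match is on the other strand. No binding was measured, and a match is a description of the letters.

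Genes that build amino acids were mostly higher with AMD3100. In serine, one-carbon and amino acid synthesis 11 of 16 tested genes (17 listed) were higher (68.8%, against 19.7% over all tested genes). The 2 lower genes were PSPH and GPT2 (12.5%, against 16.8%), and the median was 0.49. ASS1, which joins citrulline and aspartate in arginine synthesis, was read at 1382 and 1489 CPM against 811, 813 and 777 CPM with TM (log2 0.84 ± 0.0368; edgeR, adjusted p = 3.46e-16). ALDH1L2, a mitochondrial folate enzyme, had 34.4 and 34.3 CPM against 13.4, 13.3 and 13.6 CPM (1.35). The calls of SHMT1 (0.84) and PYCR1 (0.68), which make glycine and proline, ended with AMD3100 replicate 1 kept. PHGDH, the first enzyme of serine synthesis, did not differ beyond the spread (-0.00). Of 20 cytosolic aminoacyl-tRNA synthetases 9 were higher (45%) and GARS1 was lower (-0.36). QARS1 (0.80), LARS1 (0.75) and VARS1 (0.73) differed most, while 10 were not called and the median was only 0.066; with library totals as the scaling this median turned to -0.027. In each of these lists 4 genes were called higher and none lower when AMD3100 replicate 1 was kept, and the calls of AARS1 (0.46), GARS1, PSPH and GPT2 ended, with GARS1 then at 0.039.

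Ribosomal protein genes were higher with AMD3100 by small amounts. Of 48 tested, 42 were higher with AMD3100 (87.5%, against 19.7% over all tested genes) and none was lower, and the 6 not called lay between 0.01 and 0.10. Their median was 0.24. RPLP0, of the ribosomal stalk, had 2528 and 2668 CPM against 1853, 1893 and 1857 CPM (0.48). RPL3 (0.46) and RPL7A (0.49) were also higher, although the calls of RPL3 and RPL7A ended with AMD3100 replicate 1 kept. Ribosomal protein genes have many pseudogenes that can share their reads. Of 22 genes of ribosome assembly and other genes linked to MYC, 14 were higher and WDR43 was lower at -0.31 (median 0.25). CAD, the enzyme that starts pyrimidine synthesis, was read at 194 and 210 CPM against 103, 99.4 and 104 CPM (0.98 ± 0.0501; edgeR, adjusted p = 8.46e-15). NPM1 (0.38) and FBL (0.41), nucleolar proteins, were higher, and BOP1 (0.94) and WDR43 lost their calls with AMD3100 replicate 1 kept. In that setting 3 of the 48 ribosomal protein genes were called higher (6.25%, against 4.61% over all genes tested) and none lower, their median was 0.069, and 13 of the 42 lay below 0. The excess over the share of all genes therefore rests largely on leaving that library out. Of the ribosome assembly genes 5 of 22 were called higher (22.7%) and none lower, with a median of 0.16 and WDR43 at 0.090.

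Subunits of the 26S proteasome were called in both directions. Of 32 tested, 8 were higher with AMD3100 (25%, against 19.7% over all tested genes) and 11 were lower (34.4%, against 16.8%), with a median of -0.036. PSMB5, the catalytic subunit that bortezomib binds, was read at 216 and 223 CPM with AMD3100 and at 214, 222 and 206 CPM with TM, and the ranges overlapped (log2 0.04, adjusted p = 0.584). PSMD8, of the regulatory lid, differed most in the direction of AMD3100 (164 and 179 CPM against 96.1, 97.1 and 96.3 CPM; 0.83). The immunoproteasome, the form that makes peptides for MHC class I, was higher in 4 of 5 genes. PSMB9, its interferon-inducible catalytic subunit, had 24.2 and 22.6 CPM with AMD3100, 8.34, 7.16 and 8.96 CPM with TM and 24.8, 19.7 and 21.7 CPM with vehicle (1.52 ± 0.111; edgeR, adjusted p = 1.33e-11). PSME1 (0.80) and PSME2 (0.67), the chains of the PA28 cap, and PSMB10 (0.84) were higher, and PSMB8 (0.24) was not called. With AMD3100 replicate 1 kept, the calls of PSME2, PSMB10, PSMD4 (0.55), PSMC5 (0.35) and PSMD11 (-0.26) ended, which left 1 subunit of the 26S proteasome and 2 of the immunoproteasome called higher and none lower.

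MHC class I genes followed the immunoproteasome with small differences. Of 14 tested (15 listed) 6 were higher with AMD3100 (42.9%, against 19.7% over all tested genes). NLRC5, a transactivator of the class, was lower at -0.26. TAP1 (0.37) and TAP2 (0.37), the chains of the peptide transporter, were among the higher genes. The HLA class I genes are alike in sequence, so reads can be split between them. B2M, the light chain of class I, did not separate the arms: it had 211 and 216 CPM with AMD3100 and 212, 203 and 216 CPM with TM. No class I gene was called when AMD3100 replicate 1 was kept: HLA-C (0.35) turned to -0.086, and the median of the list was -0.081 in place of 0.25. Of the class II genes 3 of 10 were tested and none was called.

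Chaperone genes were called in both directions. Of 22 heat shock genes 10 were higher (45.5%, against 19.7% over all tested genes) and 6 were lower with AMD3100 (27.3%, against 16.8%). HSPA8, the constitutive HSP70, was read at 1513 and 1555 CPM against 1106, 1127 and 1137 CPM with TM, and vehicle was at 1718 CPM on average (0.45 ± 0.0322; edgeR, adjusted p = 8.51e-12). HSPA1A (0.71) was higher too, but shares nearly all its sequence with HSPA1B, and its call and that of FKBP4 (0.56) ended with AMD3100 replicate 1 kept. HSPB8, a small heat shock protein that works with BAG3, went the other way: 32.04 and 33.5 CPM stood against 77.2, 76.5 and 81.0 CPM (-1.25), with vehicle at 36.9, 39.4 and 37.4 CPM. CRYAB (-0.88) and BAG3 (-0.31) were lower as well, while HSPB1 (0.27), another small heat shock protein, was higher. HSPH1 (-0.17), of the HSP110 kind, was lower. Neither was called with AMD3100 replicate 1 kept, when HSPB1 stood at -0.10 and HSPH1 at 0.032. Of 22 endoplasmic reticulum genes 8 were lower (36.4%) and 2 were higher (9.09%). HERPUD1 (-0.41) and DNAJB11 (-0.37) were among the lower genes, and HSP90B1 (0.36) and CRELD2 (0.52) were the higher ones, the latter at 0.14 and not called with AMD3100 replicate 1 kept. XBP1 was not called (0.10). With that library kept, 2 heat shock genes were higher and 4 lower, and 1 endoplasmic reticulum gene was higher and 2 lower.

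Interferon and inflammatory genes were mostly at low level. Of 24 type I interferon response genes tested (31 listed) 6 were lower with AMD3100 and 3 were higher, a share of 25% lower against 16.8% over all genes. ISG15, a ubiquitin-like protein, was read at 51.4 and 46.6 CPM with AMD3100, 83.2, 81.3 and 78.5 CPM with TM and 34.5, 32.2 and 34.6 CPM with vehicle (-0.72 ± 0.0648; edgeR, adjusted p = 6.68e-10). AMD3100 replicate 1 had 26.5 CPM. OASL went the other way: it had 49.6 and 50.5 CPM with AMD3100, 33.0, 32.9 and 33.9 CPM with TM and 31.4, 35.1 and 38.3 CPM with vehicle (0.59). IFI44 (-0.93) and ISG20 (-0.55) lost their calls with AMD3100 replicate 1 kept. Of 8 interferon-gamma genes tested (14 listed) 5 were lower, with a median of -0.73, but GBP2 was under 1 CPM in every library. IRF1 was read at 11.8 and 10.4 CPM with AMD3100 and at 14.7, 16.3 and 16.4 CPM with TM (-0.51). ICAM1 (-0.55), an adhesion molecule, and SOCS1 (-1.58) were lower. Their differences were larger with AMD3100 replicate 1 kept, at -0.88 and -1.89, but were not called (edgeR, adjusted p = 0.0926 and 0.0599). In that setting 3 type I and 2 interferon-gamma genes were called lower and 1 type I gene higher.

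Among 12 tested cytokine genes (24 listed) 5 were lower (41.7%, against 16.8% over all genes) and 2 were higher with AMD3100 (16.7%, against 19.7%). IL18, an inflammasome cytokine, was read at 103 and 84.5 CPM with AMD3100 and at 171, 178 and 153 CPM with TM (-0.84), but AMD3100 replicate 1, at 179 CPM, lay above all 3 TM libraries and ended the call when kept. CCL5, a chemokine that draws T cells, was higher: 9.86 and 9.68 CPM stood against 4.54, 3.65 and 3.15 CPM (1.37 ± 0.157; edgeR, adjusted p = 6.34e-08). CCL28 (-0.97) and IL11 (-0.85) lost their calls with that library kept. Of 17 NF-kB subunit and feedback genes 9 were lower (52.9%) and 3 were higher (17.6%). TNFAIP3, or A20, a feedback inhibitor, had 9.41 and 8.05 CPM against 19.1, 15.1 and 14.99 CPM (-0.91). NFKBIA (-0.46), CYLD (-0.49) and NFKBIE (0.61) lost their calls with AMD3100 replicate 1 kept, when 1 NF-kB gene was called lower and 1 cytokine gene higher.

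CXCR4, the receptor that AMD3100 blocks, was read at 84.3 and 83.8 CPM with AMD3100, at 109, 105 and 102 CPM with TM and at 86.1, 101 and 96.8 CPM with vehicle. Both AMD3100 libraries were below all 3 TM libraries and the 3 vehicle libraries lay between them. The difference from TM was -0.32 ± 0.0604 (edgeR, adjusted p = 9.06e-05), and the call ended with AMD3100 replicate 1, at 88.8 CPM, kept. Against vehicle AMD3100 differed by -0.17 (adjusted p = 0.085). ACKR3, an atypical receptor that also binds CXCL12, was read at 17.5 and 15.7 CPM with AMD3100, 29.6, 29.4 and 29.1 CPM with TM and 13.2, 13.7 and 14.6 CPM with vehicle (-0.82 ± 0.0919; edgeR, adjusted p = 3.9e-08). The ligand CXCL12 had too few reads to be tested. Of 10 checkpoint ligand genes tested (12 listed) 5 were lower with AMD3100 (50%, against 16.8% over all tested genes) and none was higher. CD276, or B7-H3, had 188 and 200 CPM against 285, 280 and 282 CPM (-0.54), and VSIR, or VISTA, had 7.43 and 10.5 CPM against 20.6, 21.5 and 21.8 CPM (-1.25). CD274, or PD-L1, was at 0.292 CPM or less in every library of the fit and was not called. TNFSF9 (-0.44) and PVR (-0.30) lost their calls with AMD3100 replicate 1 kept, which left 2 of 9 checkpoint ligands called lower.

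Genes of metal handling moved singly. Of 15 copper genes tested (16 listed) 5 were higher (33.3%, against 19.7% over all tested genes) and 2 were lower with AMD3100 (13.3%, against 16.8%), with a median of 0.0074. SLC31A1, the copper importer CTR1, was read at 91.0 and 89.9 CPM with AMD3100, at 129, 126 and 123 CPM with TM and at 78.2, 78.0 and 81.8 CPM with vehicle (-0.48 ± 0.0524; edgeR, adjusted p = 2.81e-08). CUTC had 65.5 and 71.0 CPM against 42.1, 40.1 and 41.2 CPM (0.73). The copper exporters diverged, ATP7B being higher (0.59) and ATP7A lower (-0.67) with AMD3100. SLC31A1, ATP7A and ATP7B lost their calls with AMD3100 replicate 1 kept, and CUTC kept its call, while the median of the list stood at -0.093. Of 8 genes of copper-dependent amine and lysyl oxidation tested (12 listed), AOC3 (-1.21) and AOC2 (-0.44) were lower and LOXL2 (0.33) was higher. Among 8 metallothionein and zinc genes tested (12 listed), the zinc transporters SLC39A14 (98.5 and 101 CPM against 170, 158 and 171 CPM; -0.73) and SLC30A1 (-0.71) and the regulator MTF1 (-0.37) were lower. MT2A, a metallothionein, did not separate the arms: it had 129 and 116 CPM with AMD3100 and 146, 142 and 115 CPM with TM. LOXL2, AOC2, SLC30A1 and MTF1 lost their calls with AMD3100 replicate 1 kept, and SLC39A14 and AOC3 kept theirs.

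In iron handling 3 of 12 tested genes were higher (25%, against 19.7% over all tested genes) and 3 were lower (25%, against 16.8%). TFRC is given above. FTH1, the ferritin heavy chain, was lower by 1.27 but was read at only 4.99 and 5.30 CPM with AMD3100 and 12.7, 11.3 and 13.2 CPM with TM, so its count is uncertain. HMOX1, which degrades haem, had 52.3 and 57.7 CPM with AMD3100, 91.8, 90.7 and 89.5 CPM with TM and 55.9, 52.9 and 50.7 CPM with vehicle (-0.72 ± 0.0625; edgeR, adjusted p = 3.54e-10). HMOX1 differed by -1.05 with AMD3100 replicate 1 kept and was just short of a call (edgeR, adjusted p = 0.0501), and the call of SLC25A37 (0.19) ended. Among 25 NRF2 targets 8 were lower (32%, against 16.8%) and 6 were higher (24%, against 19.7%). TALDO1 (0.42), TKT (0.28) and PGD (0.26), enzymes of the pentose phosphate pathway, were higher, as were TXNRD1 (0.23) and TXN (0.15) of the thioredoxin system. HMOX1, GCLM (-0.39), GCLC (-0.22) and SLC7A11, which serve haem and glutathione, were lower, and so were AKR1B10 (-1.57), UGDH (-0.68), OSGIN1 (-0.39) and FTH1. SLC7A11 stood at -0.60 with AMD3100 replicate 1 kept and was not called (edgeR, adjusted p = 0.059). NQO1 did not differ beyond the spread (-0.00). In that setting 1 NRF2 target was called higher and 2 lower.

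Nuclear genes of complex I and the ATP synthase were mostly higher with AMD3100. Of 33 tested, 20 were higher and none was lower (60.6%, against 19.7% over all tested genes), with a median of 0.22. ATP5MC1, a chain of the rotor ring, was read at 326 and 332 CPM with AMD3100 and at 195, 194 and 195 CPM with TM (0.76). Its call, and those of NDUFA6 (0.52) and NDUFA10 (0.51), ended with AMD3100 replicate 1 kept. Of the 13 genes encoded in the mitochondria, MT-CO3 (0.12) and MT-ND4L (0.28) were higher, MT-ND2 and MT-ND1 were lower, and the median was -0.032. None of these 4 calls held with AMD3100 replicate 1 kept, when the order of the medians turned: 0.32 for the mitochondrial genes and 0.13 for complex I and the ATP synthase. Of 18 cytochrome c oxidase genes (19 listed) 4 were higher (22.2%, near the 19.7% over all tested genes) and none was lower, with a median of 0.010, which was -0.16 with AMD3100 replicate 1 kept. The assembly factor SURF1 differed most (57.9 and 61.2 CPM against 28.2, 34.0 and 30.2 CPM; 0.95). Of 12 genes of protein lipoylation and its targets 6 were higher and FDX1 was lower (-0.52). LIAS, the lipoic acid synthase, had 14.7 and 12.7 CPM against 6.43, 8.21 and 6.55 CPM (0.96 ± 0.128; edgeR, adjusted p = 7.61e-07), and GCSH, a lipoylated protein of glycine cleavage, differed by 0.81. DLST (0.51), FDX1, COX15 (0.40), SCO1 (0.27) and COX7A2 (0.23) lost their calls with AMD3100 replicate 1 kept. Called higher in that setting were 2 complex I and ATP synthase genes (6.06%, against 4.61% over all genes tested), 1 cytochrome c oxidase gene and 3 lipoylation genes.

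Glycolysis genes were higher with AMD3100 in part. Of 24 tested (25 listed) 13 were higher (54.2%, against 19.7% over all tested genes) and 5 were lower with AMD3100 (20.8%, against 16.8%). TXNIP, given above, is not a glycolytic enzyme but stood in this list and is 1 of the 13. PFKL, the liver form of phosphofructokinase, was read at 271 and 287 CPM with AMD3100 and at 125, 140 and 135 CPM with TM (1.06), and TPI1 at 1322 and 1332 CPM against 924, 937 and 926 CPM (0.51), but both calls ended with AMD3100 replicate 1 kept. SLC2A1 (-0.22) and SLC2A3 (-0.39), the glucose importers, were lower. These 2 importers are also known to respond to hypoxia, but such a response was not tested here. The HIF target list, which itself holds SLC2A1 but not SLC2A3, lay on the TM side. Of 21 tested (22 listed) 12 were lower with AMD3100 (57.1%) and 3 were higher (14.3%), with a median of -0.33. NDRG1 was read at 49.8 and 52.95 CPM with AMD3100, 103, 109 and 104 CPM with TM and 55.8, 52.4 and 54.7 CPM with vehicle (-1.04 ± 0.0603; edgeR, adjusted p = 1.28e-13). BHLHE40, a transcriptional repressor, had 28.1 and 28.3 CPM against 57.7, 58.0 and 55.4 CPM (-1.02), and VEGFA, the vascular growth factor, had 89.6 and 92.3 CPM against 142, 146 and 142 CPM (-0.66). CA9, a carbonic anhydrase induced by hypoxia, was not called (0.12). Of the HIF targets 6 were called lower and none higher when AMD3100 replicate 1 was kept. In the glycolysis list 2 were then higher, ENO1 and TXNIP, and 1 was lower, SLC2A3. SLC2A1 lost its call.

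Genes of fatty acid synthesis were mostly higher with AMD3100, and those of cholesterol synthesis were called in both directions. Of 14 fatty acid genes 8 were higher (57.1%, against 19.7% over all tested genes) and 2 were lower (14.3%, against 16.8%). Their median was 0.18. FASN, the fatty acid synthase, was read at 1297 and 1433 CPM with AMD3100, and at 667, 709 and 696 CPM with TM, while vehicle stood at 1340 ± 46.0 CPM (SD, n = 3). Its log2 difference was 0.98 ± 0.0408 (edgeR, adjusted p = 1.33e-16). ELOVL6 (0.77), which lengthens palmitate, was higher. ACLY (0.40) and SREBF1 (0.40) lost their calls with AMD3100 replicate 1 kept. Of 23 cholesterol genes 7 were higher (30.4%) and 7 were lower (30.4%). PMVK (1.00), MVD (0.71) and FDPS (0.60), enzymes of the mevalonate path, were among the higher genes, and CYP51A1 (-0.80), SC5D (-0.50) and MSMO1 (-0.19), which work on sterols, were among the lower ones. PMVK, MVD, CYP51A1, SC5D and MSMO1 lost their calls with AMD3100 replicate 1 kept, and FDPS kept its call, while 2 fatty acid genes and all 3 of tyrosine breakdown named below were called higher. In tyrosine breakdown 3 of 4 tested genes (6 listed) were higher: beside HPD, FAH was read at 33.3 and 37.8 CPM against 13.9, 12.7 and 15.1 CPM (1.35) and GSTZ1 at 22.8 and 22.5 CPM against 9.83, 9.47 and 8.57 CPM (1.29). HGD, the enzyme of the step between HPD and GSTZ1, was not called (-0.66).

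**Figure D4:**
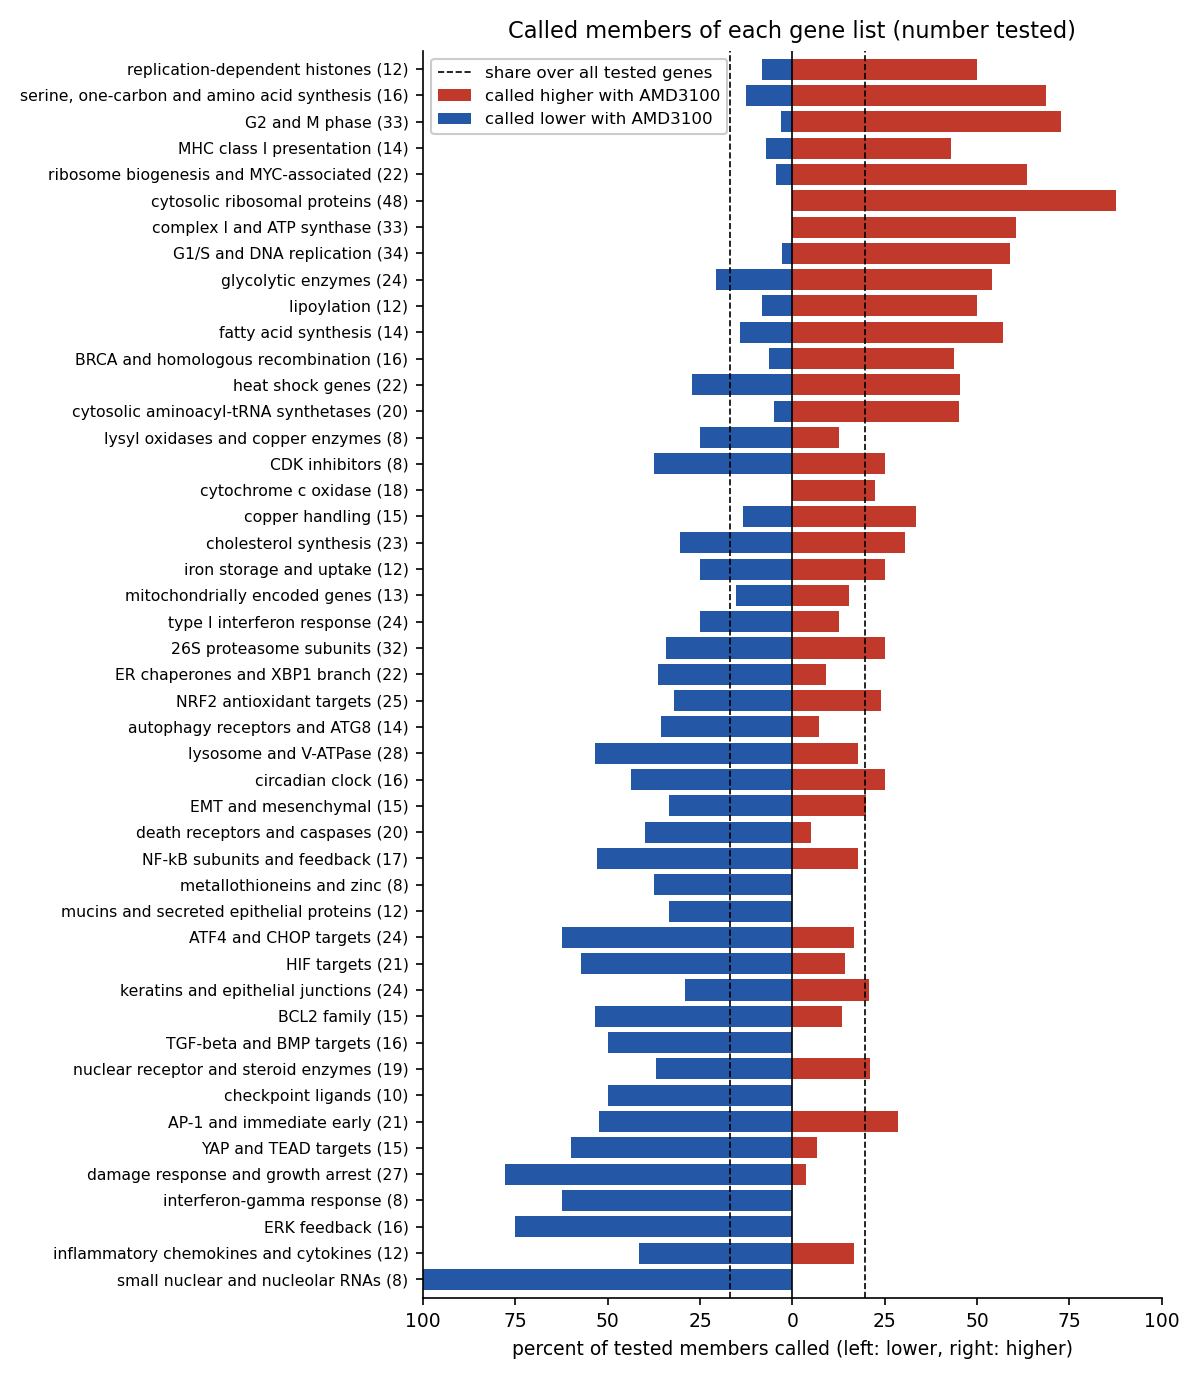
Share of the tested members of each gene list (number tested in parentheses; lists of under 8 tested genes and cell type markers not drawn) called higher with AMD3100 (red, right) or lower (blue, left), ordered by median log2 difference. Dashed lines mark the shares over all tested genes, 19.7% higher and 16.8% lower. Ribosomal proteins (87.5%) and G2 and M phase genes (72.7%) reach farthest to the right, and small nuclear and nucleolar RNAs (100%), damage response and growth arrest genes (77.8%) and ERK feedback genes (75%) farthest to the left.

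Feedback genes of the ERK pathway were lower with AMD3100 than with TM. Of 16 tested (18 listed) 12 were lower (75%, against 16.8% over all tested genes) and none was higher, with a median of -0.79. EPHA2, a receptor tyrosine kinase, was read at 63.8 and 69.4 CPM with AMD3100, at 172, 176 and 174 CPM with TM and at 59.3, 58.3 and 57.1 CPM with vehicle (-1.38 ± 0.055; edgeR, adjusted p = 5.31e-17). DUSP4 (-1.32) and DUSP5 (-1.84), phosphatases that inactivate ERK, were lower, and DUSP5 had 14.3 and 12.1 CPM against 47.3, 47.7 and 47.7 CPM. SPRY4, an inhibitor of receptor signalling, had 1.91 and 1.66 CPM with AMD3100, 6.86, 8.19 and 8.28 CPM with TM and 0.776, 0.911 and 0.396 CPM with vehicle (-2.12 ± 0.232). In ETV5 (-1.05), an ETS transcription factor, AMD3100 stood between the other groups: it had 53.1 and 48.8 CPM with AMD3100, 106, 110 and 99.6 CPM with TM and 27.9, 27.2 and 26.4 CPM with vehicle, and AMD3100 replicate 1 had 84.9 CPM. CCND1, the cyclin of the growth factor response, was not called (0.14). Against vehicle the list's median was 0.99 for TM and 0.17 for AMD3100. Called lower with AMD3100 replicate 1 kept were 7 members, and none was higher, with a median of -0.78.

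AP-1 and immediate early genes diverged within the family. Of 21 tested 11 were lower (52.4%, against 16.8% over all tested genes) and 6 were higher with AMD3100 (28.6%, against 19.7%). In FOS, a partner of JUN in AP-1, AMD3100 stood above both other groups: it was read at 61.8 and 66.4 CPM with AMD3100, at 22.2, 22.5 and 25.4 CPM with TM and at 16.9, 17.3 and 16.8 CPM with vehicle. AMD3100 exceeded TM by 1.45 ± 0.0766 (edgeR, adjusted p = 1.84e-14) and vehicle by 1.91, and AMD3100 replicate 1 had 34.2 CPM. EGR1, an early response factor, shared this order, with 21.9 and 20.9 CPM against 9.29, 7.65 and 8.15 CPM with TM and 2.95, 4.24 and 2.23 CPM with vehicle (1.36). JUN differed by 0.38. FOSL1, another partner of JUN, went the other way, with 12.1 and 11.3 CPM against 37.3, 39.6 and 39.0 CPM (-1.72). DUSP1 (-1.10), MAFF (-1.76) and ATF3 were lower too. In DUSP1 AMD3100, at 65.7 and 69.1 CPM, lay below TM, at 137, 141 and 154 CPM, and above vehicle, at 44.5, 42.8 and 48.2 CPM. AMD3100 replicate 1 had 48.7 CPM of DUSP1. With that library kept, 8 members were lower and 2 higher, and JUN lost its call.

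Targets of YAP and TEAD, the effectors of the Hippo pathway, were lower with AMD3100 in 9 of 15 (60%, against 16.8% over all tested genes). FJX1 (1.16) was higher. CCN1 was read at 131 and 131 CPM with AMD3100, 263, 258 and 258 CPM with TM and 108, 107 and 105 CPM with vehicle (-0.99 ± 0.0469; edgeR, adjusted p = 2.16e-15), and CCN2 at 7.45 and 6.36 CPM against 22.9, 21.1 and 22.3 CPM (-1.68). AJUBA differed by -0.53. Of 16 TGF-beta and BMP targets tested (17 listed) 8 were lower (50%) and none was higher. PMEPA1 (-0.73), a brake on TGF-beta receptors, had 35.3 and 37.2 CPM against 58.9, 62.7 and 59.1 CPM, and SMAD6, an inhibitory SMAD, had 72.2 and 73.9 CPM against 105, 115 and 106 CPM (-0.57). ID1 (-0.49) and SKIL (-0.76) lost their calls with AMD3100 replicate 1 kept, which left 6 YAP targets and 3 TGF-beta targets called lower and 1 YAP target higher.

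Lysosome genes lay on the TM side. Of 28 tested (29 listed) 15 were lower with AMD3100 (53.6%, against 16.8% over all tested genes) and 5 were higher (17.9%, against 19.7%). The median was -0.15. NEU1, the lysosomal sialidase, was read at 67.5 and 66.2 CPM with AMD3100, 129, 126 and 133 CPM with TM and 69.6, 65.9 and 67.8 CPM with vehicle (-0.96 ± 0.0552; edgeR, adjusted p = 1.14e-13), and CTSL, a cathepsin, at 134 and 145 CPM against 216, 222 and 214 CPM (-0.64). Another cathepsin, CTSZ, was read at 1235 and 1280 CPM against 868, 865 and 863 CPM (0.54), and GAA, the acid glucosidase, was higher by 0.85. CTSZ and GAA lost their calls with AMD3100 replicate 1 kept. Of 14 autophagy genes tested (15 listed) 5 were lower (35.7%) and BECN1 was higher (0.43). MAP1LC3B, the ubiquitin-like protein of the autophagosome, had 78.1 and 79.2 CPM with AMD3100 and 128, 129 and 131 CPM with TM (-0.72). SQSTM1, or p62, was not called (0.01). GABARAPL1 (-0.50), ULK1 (-0.25) and BECN1 lost their calls with AMD3100 replicate 1 kept, when 6 lysosome genes and 1 autophagy gene were called lower and none higher.

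Epithelial genes changed unevenly. Of 24 keratin and junction genes tested (32 listed) 7 were lower with AMD3100 (29.2%, against 16.8% over all tested genes). The 5 that were higher (20.8%) were near the 19.7% over all tested genes. KRT18 and KRT7, keratins of simple epithelia, were higher: KRT18 had 625 and 656 CPM against 442, 430 and 458 CPM (0.53 ± 0.0408; edgeR, adjusted p = 3.31e-11) and KRT7 had 562 and 573 CPM against 364, 393 and 352 CPM (0.62). The basal keratins KRT15 and KRT17 (-0.99) were lower, as was JUP, or plakoglobin, with 397 and 436 CPM against 611, 655 and 655 CPM (-0.62). The luminal marker list summed to 931 to 973 CPM with AMD3100, 696 to 726 CPM with TM and 914 to 954 CPM with vehicle. KRT18 alone made up most of the sum with either drug. Of the 8 luminal genes tested, KRT18, ERBB2 (0.72) and GATA3 (0.83) were called and 5 were not, with a median of 0.062. In 2 of the 8 both AMD3100 libraries lay below all TM libraries. ERBB2, GATA3 and KRT7 lost their calls with AMD3100 replicate 1 kept. The basal list summed to 292 to 303 CPM with AMD3100 and 279 to 284 CPM with TM. Of its 7 tested genes, which do not include KRT15, KRT17 was lower, CAV1 (0.26) was higher and 5 were not called. The median of this list was -0.32. CAV1 lost its call with AMD3100 replicate 1 kept. Of 15 mesenchymal genes 5 were lower (33.3%) and 3 were higher (20%). CD44, the hyaluronan receptor, was read at 127 and 129 CPM against 211, 209 and 211 CPM (-0.72), and ITGA5, a fibronectin receptor chain, differed by -0.56, while VIM (0.40) and S100A4 (0.72) were higher. VIM differed by 0.86 and S100A4 by 0.52 with AMD3100 replicate 1 kept, neither of them called (edgeR, adjusted p = 0.0908 and 0.0835). Of 12 mucin and secreted epithelial genes tested (18 listed) 4 were lower (33.3%): MUC1 (-0.68), SLPI (-0.48), PI3 (-1.44) and S100A9 (-2.93). The last 3 lost their calls with that library kept. In that setting 5 keratin and junction genes were lower and 3 higher.

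Marker lists of other cell types were small or absent. The fibroblast list was read in 3 of 8 genes and summed to 133 to 140 CPM with AMD3100, 220 to 226 CPM with TM and 142 to 146 CPM with vehicle. COL1A1 (-0.71) made up 129 and 135 CPM of it with AMD3100, and PDGFRB (-0.80) was lower too. The third gene tested, DCN, went the other way, at 2.46, and was not called. COL1A2, COL3A1, LUM, FAP and PDGFRA had too few reads. The macrophage list was read in 2 of 8 genes, CD14 (-1.27) and CSF1R (-0.60), and summed to 7.73 to 9.74 CPM with AMD3100, 13.2 to 16.4 CPM with TM and 6.88 to 7.84 CPM with vehicle. CSF1R lost its call with AMD3100 replicate 1 kept. CD68, CD163, MRC1 and LYZ had too few reads. The B cell and endothelial lists had 3 and 4 tested genes, none of them called. The part of such RNA in the results was not tested.

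Hormone-linked and clock genes gave smaller lists. Of 19 nuclear receptor targets and steroid enzymes tested (21 listed) 7 were lower (36.8%, against 16.8% over all tested genes). The 4 that were higher (21.1%) were near the 19.7% over all tested genes. PDK4 (-1.17), a kinase that restrains pyruvate dehydrogenase, and TSC22D3 (-0.78) were lower, and FKBP5 (0.50) was higher. TSC22D3 and FKBP5 are both known glucocorticoid targets, and they moved apart. Of 16 circadian clock genes 7 were lower (43.8%), led by BHLHE40, NPAS2 (-0.77) and PER2 (-0.91). The 4 higher genes (25%) were DBP (0.74), PER3 (0.57), TEF (0.37) and CRY2 (0.30). BHLHE41 (-0.46), PER2, PER3, TEF, CRY2 and DBP lost their calls with AMD3100 replicate 1 kept, which left 2 clock genes lower and none higher, with CRY2 at -0.041.

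Small nuclear and nucleolar RNAs had the largest differences of any list. All 8 of the tested genes (21 listed) were lower with AMD3100. SNORD3B-1, a copy of the U3 RNA that guides ribosomal RNA processing, was read at 1.02 and 0.686 CPM with AMD3100, 69.5, 73.6 and 70.3 CPM with TM and 0.336, 0.552 and 0.396 CPM with vehicle (-6.37 ± 0.138; edgeR, adjusted p = 5.04e-23). SNORD3A had 0.546 and 0.422 CPM against 17.1, 18.05 and 17.7 CPM (-5.17) and SNORD3C 0.149 and 0.185 CPM against 9.13, 9.06 and 10.2 CPM (-5.80). RNVU1-26, a variant U1 RNA (-4.07), lost its call with AMD3100 replicate 1 kept, when 5 of the 8 were called lower. Summed over the 8 genes, the level was 32.4 to 40.9 CPM with AMD3100, 169 to 204 CPM with TM and 39.5 to 50.3 CPM with vehicle. These RNAs lack poly(A) tails and exist in near-identical copies, and the libraries were made by poly(A) selection, so what share of them was caught is unknown. Across gene types, 26.5% of 13359 protein-coding genes were higher with AMD3100 and 21.2% were lower, while of 3422 long non-coding genes 7.66% were higher and 10.0% were lower. Of 164 small or other RNA genes 5 were higher and 17 were lower.

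The same contrast of drugs was available in MDA-MB-231, where both arms also held bortezomib. Fitted alone, that line gave 0 called genes of 16498 between bortezomib with AMD3100 and bortezomib with TM by edgeR, 0 by limma-voom and 52 by DESeq2, with 1464 genes at an unadjusted p under 0.05. In a fit of both lines, which shares 1 estimate of the spread, 102 of 22621 genes (0.451%) were called for this contrast in MDA-MB-231. For HCC1937 the same fit called 2705 (12%). The biological coefficient of variation, a measure of the spread, was 20.4% in MDA-MB-231 fitted alone and 7.49% in HCC1937. The counts from the separate fits were therefore not reached with equal power. In the same fit the difference AMD3100 minus TM itself differed between the lines in 1866 genes (8.25%). CDKN1A was at 342 ± 35.4 CPM with bortezomib and AMD3100 and at 411 ± 61.8 CPM with bortezomib and TM (SD, n = 3 each), and at 62.4 CPM with vehicle. Both arms with bortezomib therefore stood far above vehicle. The log2 difference AMD3100 minus TM of CDKN1A was -3.01 in HCC1937 and -0.27 in MDA-MB-231, and these differed by -2.75 ± 0.166 (edgeR, adjusted p = 1.00e-08). For HMMR the values were 2.39 in HCC1937 and -0.36 in MDA-MB-231 (the latter with adjusted p = 0.476), a difference of 2.75 ± 0.309 (edgeR, adjusted p = 2.1e-05), with HMMR under 8 CPM in every MDA-MB-231 library given bortezomib. The cell line and the presence of bortezomib cannot be told apart here.

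**Figure D5:**
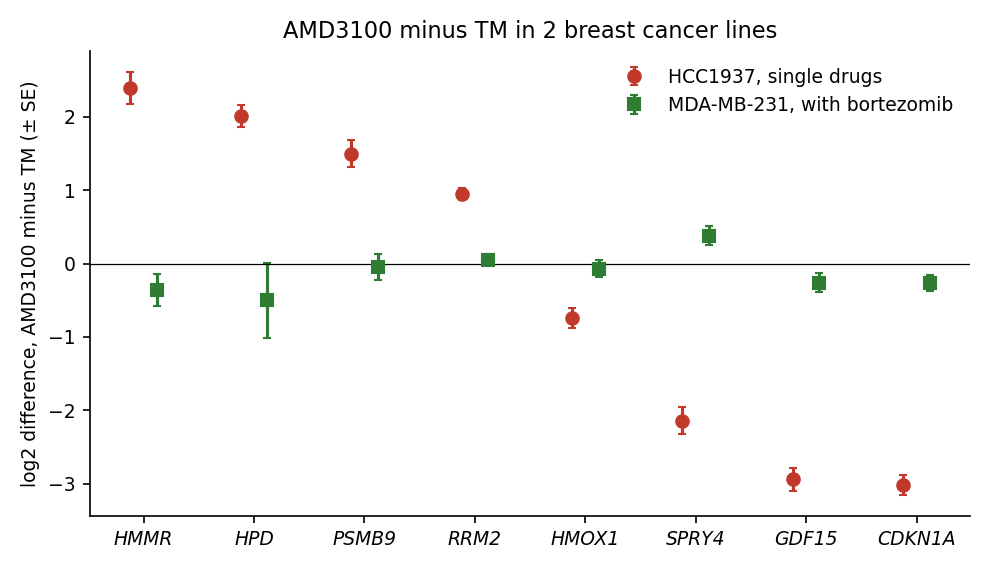
Log2 difference, AMD3100 minus TM, with its standard error, for 8 genes in HCC1937 given the single drugs (red circles) and in MDA-MB-231 given each drug with bortezomib (green squares), from a fit of both lines. In MDA-MB-231 the values lie between -0.50 (HPD) and 0.38 (SPRY4), and in HCC1937 between -3.01 (CDKN1A) and 2.39 (HMMR).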

How the data were processed

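The authors deposited 1 table of raw read counts per gene for each cell line, whole numbers that were not normalized. The submitters' processing notes name the build GRCh38 and the tools featureCounts 2.0.1 and MultiQC 1.11. The aligner and the annotation version are not given in the sources used here. Per the labels' protocols, RNA was kept in Trizol and poly(A) RNA was made into libraries. Of 78932 features 61481 matched a gene symbol, and features without one held 0.186% to 0.209% of counts.

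The 8 HCC1937 libraries (3 vehicle, 3 TM, AMD3100 replicates 2 and 3) were fitted together with edgeR 4.0.16 in R 4.3.3: low counts removed by filterByExpr, TMM scaling, 1 coefficient per group, a quasi-likelihood test of AMD3100 minus TM and Benjamini-Hochberg adjustment over all tested genes, called at an adjusted p under 0.05. This leaves 5 residual degrees of freedom. CPM are scaled by TMM totals. The biological coefficient of variation was 7.49%. In simulated data of this comparison (18987 genes tested) 76.1%, 86.6% and 95.5% of genes changed 1.5-, 2- and 4-fold were recovered. The changed genes, 66 or 67 per fold, lay above 1 CPM with vehicle, and all others were left unchanged. The spread was the one fitted to these same libraries. These shares therefore do not cover genes of lower level. Alternatives were limma-voom (limma 3.58.1), DESeq2 1.42.0, other scalings and filters, AMD3100 replicate 1 kept and leaving out each library. The difference between cell lines was fitted over 17 libraries with edgeR.

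The members and gene lists were chosen with earlier results of these data known. The rule for named genes kept called genes with a mean of at least 5 CPM in the higher arm and arms that do not overlap. Genes with the symbol of a numbered locus, pseudogene, antisense or small RNA were left out. From the rest it took the 14 largest log2 differences and the 6 largest CPM differences in each direction, AMD3100 against TM. It added the called members of each list with the smallest p and a few genes whatever their result, such as CXCR4, PSMB5 and MKI67. Other list members that are named were picked after their values were seen. Gene positions and types are from GENCODE 29 and promoters from RefSeq GRCh38.p14. The 4T1 libraries were not used.
Some genes are not reported here.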

Additional observations from a re-analysis of the deposited data

Results flagged for a closer look

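The difference AMD3100 minus TM was itself different between HCC1937 given single drugs and MDA-MB-231 given each drug with bortezomib in 1866 genes, by a test of the difference with edgeR. Among 8 genes named in the report, the log2 value of HCC1937 minus that of MDA-MB-231 was -2.75 for CDKN1A, -2.68 for GDF15, 2.75 for HMMR, 0.90 for RRM2, 1.54 for PSMB9, 2.51 for HPD, -2.52 for SPRY4 and -0.68 for HMOX1. In these 8 genes the MDA-MB-231 arms differed by 0.50 or less in either direction. HPD had under 1 CPM in the MDA-MB-231 arms with bortezomib, so its value there is poorly measured. Cell line and bortezomib cannot be told apart.

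AMD3100 replicate 1, which entered no main comparison, drew 19.9% of its counts from mitochondrial genes and 3.06% from ribosomal RNA, above the 10.5% to 11.3% and 0.638% to 0.699% of the 5 libraries compared. It held 20639 detected genes against 29583 or more in those libraries.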

How the results depend on the processing

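Keeping AMD3100 replicate 1 lowered the count of called genes from 7442 to 1599 (898 higher and 701 lower with AMD3100), all of them called in the same direction without it. Asking for a 2-fold change as well left 1359 (597 and 762). Leaving out each library in turn gave 5851 to 7662 called genes, 3307 to 3909 higher and 2544 to 3753 lower. Library totals as the only scaling gave 3095 higher and 4675 lower, with the median of all genes at -0.106. DESeq2 called 7422, limma-voom 7318 and an adjusted p under 0.01 left 5614. Of 223 called named genes 117 held their call in every alternative run and 106 lost it in at least 1. With AMD3100 replicate 1 kept, 165 of the 546 called list members were still called and 48 turned sign without a call. Those of the 48 that the named-gene rule took were RPS2 (-0.030), MT-ND1 (0.35), XRCC3 (-0.0034), CDKN2A (-0.014) and HLA-C (-0.086). Of 57 list medians 10 turned sign in that setting: MHC class I (-0.081), cholesterol synthesis (0.030, and -0.0622 to 0.046 over leaving out each library, the highest without AMD3100 replicate 3), the endothelial markers (0.50), mitochondrially encoded genes (0.32), cytochrome c oxidase (-0.16), copper handling (-0.093), CDK inhibitors (-0.13), the 26S proteasome (0.0034), iron handling (0.012) and lysyl oxidases (-0.038). The median of the cytosolic aminoacyl-tRNA synthetases turned to -0.027 with library totals. The cause was not tested.

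With the replicate number as a block 6802 genes were called. Same-numbered libraries of different groups did not deviate together (correlations of -0.016 to 0.024 across genes), so the numbers do not pair the libraries.

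The count of genes whose difference differed between the lines moved from 1866 to 625 with AMD3100 replicate 1 kept, to 936 without AMD3100 replicate 2, to 897 without AMD3100 replicate 3 and to 3577 without the third MDA-MB-231 library of bortezomib with TM, in alternatives chosen after seeing the data. Leaving out each drug-treated library in turn gave 897 to 3577, and the vehicle libraries were not left out. The 2 AMD3100 libraries limit the precision of every value.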

Other observations

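Long non-coding genes were called less often than protein-coding genes, but a larger part of their calls reached 2-fold. The part of low counts in this was not tested. Of 343 long non-coding genes called lower with AMD3100, 221 differed at least 2-fold, and of 262 called higher 115 did. In protein-coding genes these were 347 of 2835 and 396 of 3536. A further 2251 tested features were not in GENCODE 29, and 122 of them were called higher and 168 lower. Among pseudogenes 82 of 1011 were higher and 41 lower.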
